A study of Mus musculus with 12 samples.

Results

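The platelet-derived growth factor (PDGF) system consists of the receptor genes Pdgfra and Pdgfrb and the ligand genes Pdgfa, Pdgfb, Pdgfc and Pdgfd. These 6 genes were taken by name, whatever their level, from a table of 47069 distinct gene identifiers, and all 6 were found in it. Their transcripts were measured by total RNA-seq in green fluorescent cells sorted from Pdgfra-H2BGFP mice. The 12 libraries formed 4 groups of 3, E13.5 (embryonic) brain, E13.5 spinal cord, P7 (postnatal day 7) brain and P7 spinal cord. All animals, at both ages, carried the same knock-in, in which a nuclear histone H2B-GFP fusion is made from one copy of the Pdgfra locus, so no group has 2 intact Pdgfra alleles and there is no wild-type control. The sort was on this reporter, so the level of Pdgfra itself was partly set by the gate. At P7 the study saw a gradient of GFP and left out the dimmer cells, in which it found no Pdgfra expression. Such a step is described for P7 only, so age and this choice of cells cannot be told apart. GFP can also outlast the Pdgfra transcript in cells that have begun to differentiate, per the methods of the study. The brain tissue was forebrain and each sample pooled cells of several animals of both sexes. Papain was used to dissociate the P7 tissue but not the embryonic tissue, which was broken up mechanically, so age and dissociation cannot be told apart.

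PDGF ligands are secreted dimers that join receptor tyrosine kinases in pairs at the cell surface. PDGF-AA and PDGF-CC act mainly through PDGFRA, PDGF-DD acts mainly through PDGFRB, and PDGF-BB binds both. In the central nervous system PDGF-A from neurons and astrocytes is a mitogen and survival factor for oligodendrocyte precursor cells (OPCs), which carry PDGFRA. PDGF-B from endothelial cells recruits pericytes, which carry PDGFRB. PDGF-C and PDGF-D are secreted with an extra CUB domain that proteases must remove before they can activate a receptor. Fibroblasts of vessels and meninges carry both receptors.

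Values are CPM as deposited, in which a gene's count was scaled to a library size that the authors had rescaled. Recovered reads ranged from 12566345 to 38790312 per library, so that 3 reads correspond to 0.0792 to 0.179 CPM in 11 libraries and to 0.506 CPM in E13.5 spinal cord replicate 3. That library stood apart, with 40.9% of its reads in protein-coding genes against 82.4 to 91.1% in the others. P7 replicates 1 and 2 were nearly alike in each region: the chi-square between them, per gene, was 1.43 in brain and 1.68 in spinal cord, against 3.50 to 17.7 for the other pairs of replicates. The labels do not say which samples came from separate litters, so p-values measure the spread between these samples, part of which may be technical. The 7 OPC markers examined (Cspg4, Sox10, Olig1, Olig2, Cacng4, Ptprz1 and Gpr17) were detected in every library, at a summed 321 to 1601 CPM at E13.5 and 8158 to 8572 CPM at P7. Markers of vascular and leptomeningeal fibroblasts were also present at both ages, as given beside Pdgfrb.

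Promoter windows are shown for Pdgfra and Pdgfa, the members that increased between the ages, and for Pdgfd, which decreased. Each comes from the 250 bases just before the RefSeq start on mouse build GRCm38.p6, cut at the first base annotated as exon. The letters run 5′ to 3′ on the gene's own strand, with CpG dinucleotides in capitals. The Pdgfra window lies at chr5:75152001-75152250 and the Pdgfd window at chr9:6168236-6168485, both on the plus strand. The Pdgfa window lies at chr5:138995038-138995194 on the minus strand, inside the Pdgfa gene as annotated by GENCODE. There the 93 bases nearest the RefSeq start were left out by this cut, so the printed stretch ends short of that start.
Pdgfra: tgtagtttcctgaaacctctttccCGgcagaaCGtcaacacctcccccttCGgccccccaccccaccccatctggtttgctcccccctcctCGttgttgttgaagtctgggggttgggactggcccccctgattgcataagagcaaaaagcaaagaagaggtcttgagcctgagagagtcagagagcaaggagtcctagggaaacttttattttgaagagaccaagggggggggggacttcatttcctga
Pdgfa: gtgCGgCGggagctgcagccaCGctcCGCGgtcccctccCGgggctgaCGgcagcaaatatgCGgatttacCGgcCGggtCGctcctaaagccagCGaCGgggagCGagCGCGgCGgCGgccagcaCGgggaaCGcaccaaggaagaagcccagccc
Pdgfd: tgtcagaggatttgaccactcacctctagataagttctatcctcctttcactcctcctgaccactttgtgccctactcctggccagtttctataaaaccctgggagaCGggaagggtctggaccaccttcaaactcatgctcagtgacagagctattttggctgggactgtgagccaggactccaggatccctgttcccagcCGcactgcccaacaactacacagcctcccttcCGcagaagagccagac
The Pdgfa window had a GC content of 72.0% and 20 CpG dinucleotides, an observed-to-expected CpG ratio of 0.986. The Pdgfra window had 54.4% GC, 4 CpG dinucleotides and a ratio of 0.216, and the Pdgfd window 53.6% GC, 3 CpG dinucleotides and a ratio of 0.176. The medians over 32841 promoter windows of the full 250 bases were 52.4% GC and a ratio of 0.37. Among 3 short motifs searched on both strands, the SOX core ACAAT and the GC box GGGCGG were in none of the 3 windows, and the E-box CANNTG was in the Pdgfra window once. These letters occur in 27.7%, 32.7% and 66.2% of the full 250-base windows. The Pdgfa window is shorter, at 157 bases, so these backgrounds and medians are not matched to it.

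Between E13.5 and P7, Pdgfra and Pdgfa increased and Pdgfrb and Pdgfd decreased when averaged over both regions. A gene was called when limma on log2(CPM + 0.5) gave a Benjamini-Hochberg adjusted p under 0.05 over 18319 tested genes and the change was more than 2-fold. By this rule 4 of 6 members were called, against 29.4% of all tested genes. Of these, 2 were higher at P7 (background 12.7%) and 2 were lower (background 16.7%). In brain alone 4 of 6 were called (background 27.7%) and in spinal cord alone 4 of 6 (background 35.1%). Brain and spinal cord differed less. Over both ages, 0 of 6 members passed in limma (backgrounds 4.2% in either direction, 1.26% higher and 2.95% lower in brain), although 3 had an unadjusted p under 0.05, and limma-voom called 1, Pdgfa, while edgeR and DESeq2 called 0. At E13.5 limma called 0 of 6 (background 8.71%), 4 had an unadjusted p under 0.05, and limma-voom, edgeR and DESeq2 called 0, 0 and 1, the last being Pdgfb. At P7, 1 of 6 was called (background 6.62%). The regional difference itself changed with age for 2 of 6 (background 16.3%), Pdgfrb and Pdgfb. With 6 genes, a count of 0 or 1 is not far from these backgrounds.

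**Figure D1:**
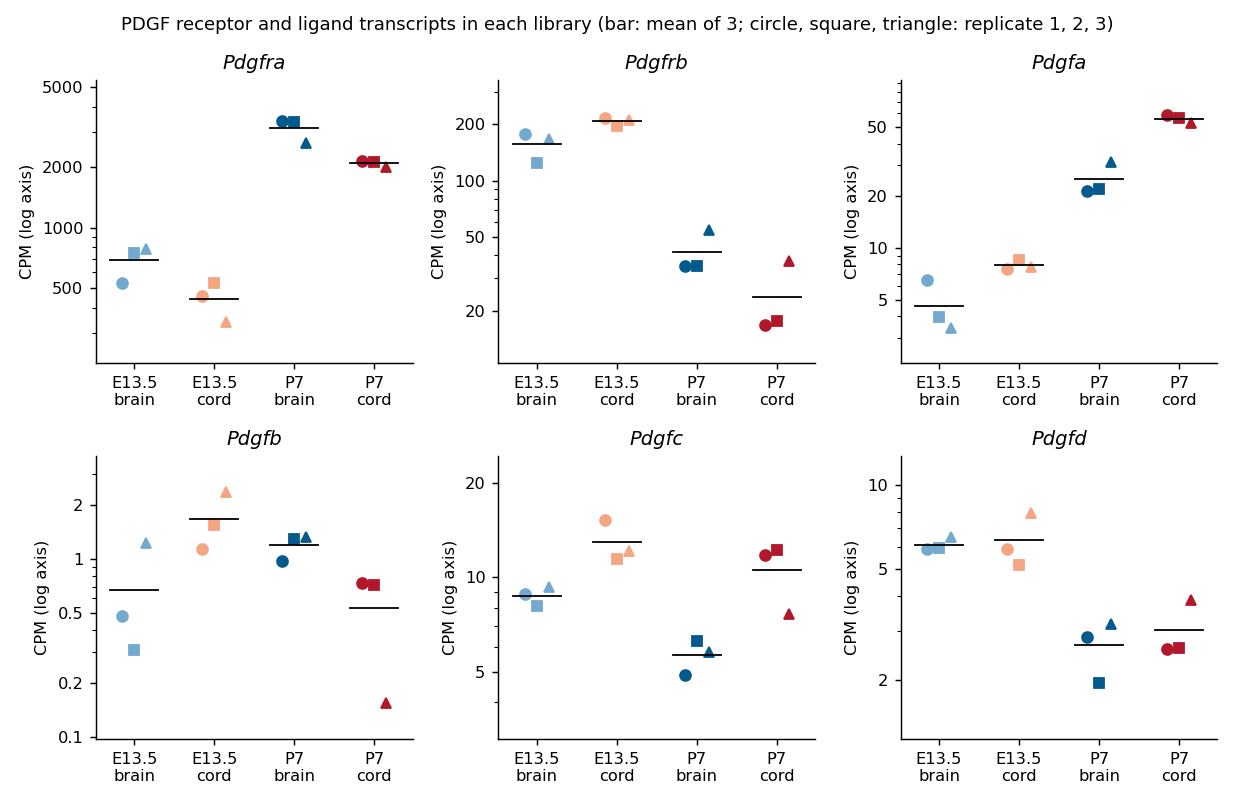
CPM of each PDGF receptor and ligand gene in the 12 libraries, on log axes that differ between panels. Each point is a library and each bar the mean of 3. Pdgfra and Pdgfa sit higher in all 6 P7 libraries than in any E13.5 library, Pdgfrb and Pdgfd lower.

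Pdgfra (ENSMUSG00000029231) encodes the receptor for PDGF-A and lies on chromosome 5 from 75152292 to 75198215, plus strand, in the GENCODE annotation of GRCm38. E13.5 brain libraries had 529, 748 and 787 CPM, and E13.5 spinal cord libraries had 458, 535 and 341 CPM. In P7 brain it reached 3402, 3340 and 2640 CPM and in P7 spinal cord 2140, 2114 and 2014 CPM. Every P7 library was above every E13.5 library, and all 3 P7 brain libraries were above all 3 P7 spinal cord libraries, whereas the regions overlapped at E13.5. The log2 difference was 2.20 ± 0.22 (SE) in brain and 2.26 ± 0.22 in spinal cord, with limma adjusted p of 2.24e-06 and 1.13e-06. The age effect did not differ detectably between the regions, with an interval for the difference of -0.72 to 0.60 on the log2 scale. Brain minus spinal cord was 0.63 at E13.5 and 0.57 at P7, below the 2-fold limit at both ages, with limma adjusted p of 0.0396 and 0.063. With quantile normalization the P7 difference was 1.31 and was called. Because the cells were gated on a reporter of this gene, these values describe the sorted populations rather than a measure independent of the sort. In such bulk samples fewer cells of a type and less RNA per cell cannot be told apart.

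Within the E13.5 groups, libraries low in Pdgfra were also low in OPC markers. E13.5 brain replicate 1, lowest in its group for Pdgfra at 529 CPM, had a summed OPC marker level of 756 CPM, against 1483 and 1601 CPM in the other 2. E13.5 spinal cord replicate 3 was lowest in its group for both, at 341 CPM of Pdgfra and 321 CPM of OPC markers. All 7 OPC markers were called higher at P7 in both regions. At E13.5, 5 of 7 were called higher in brain than in spinal cord. The P7 libraries did not follow the same order, since P7 brain replicate 3 had the lowest Pdgfra of its group and the highest OPC marker sum, 8516 CPM. Gpr17 was the largest part of the P7 sums, with means of 2882 CPM in brain and 3779 CPM in spinal cord. The sum is therefore weighted to its highest genes and is not a count of OPCs. The share of these population differences in the Pdgfra values was not tested.

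Pdgfrb, the receptor of pericytes and fibroblasts, moved in the opposite direction. It is on chromosome 18 (ENSMUSG00000024620). E13.5 brain held 179, 125 and 167 CPM, and E13.5 spinal cord held 217, 196 and 211 CPM. At P7 they were 35.0, 34.8 and 54.3 CPM in brain and 16.9, 17.8 and 37.0 CPM in spinal cord. No P7 library reached any E13.5 library. The spinal cord libraries were the highest of all at E13.5, and at P7 the 2 lowest libraries were of spinal cord. Pdgfrb decreased by 1.92 ± 0.26 (SE) on the log2 scale in brain and by 3.19 ± 0.26 in spinal cord (limma adjusted p = 3.97e-05 and 2.89e-07). The decrease was thus larger in spinal cord, and the difference between the regional age effects was called, at 1.26 ± 0.37 (limma adjusted p = 0.0174). Averaging P7 replicates 1 and 2 left that difference at 1.19 with an adjusted p of 0.0569, no longer called. At P7 brain exceeded spinal cord by 0.84 on the log2 scale, under the 2-fold limit. Without P7 spinal cord replicate 3, the highest of its group, the difference was 1.20 and was called (limma adjusted p = 0.00116). With all libraries it was also called after TMM, median-ratio or quantile rescaling, at 1.03, 1.06 and 1.06. In edgeR and DESeq2 it was 1.01 and 1.02 and called.

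Most markers of mesenchymal cells were lower at P7 over both regions, as was Pdgfrb. The 9 vascular and leptomeningeal fibroblast markers (Col1a1, Col1a2, Col3a1, Dcn, Lum, Ogn, Fbln1, Aldh1a2 and Slc6a13) were all called lower at P7 over both regions. Their summed level was 6102 to 9187 CPM in E13.5 brain, 12020 to 13324 CPM in E13.5 spinal cord, 1183 to 1541 CPM in P7 brain and 1238 to 2680 CPM in P7 spinal cord, and none was at 0 in any library. In brain alone 7 of these 9 were called lower, and at P7 the sums of the regions overlapped. Of 10 tested pericyte and mural cell markers, 7 were called lower and 0 higher over both regions, while in brain 5 were called lower and Rgs5 was called higher. Their sum was 241 to 427 CPM in E13.5 brain, 480 to 592 CPM in E13.5 spinal cord, 254 to 292 CPM in P7 brain and 86.1 to 134 CPM in P7 spinal cord. The ages thus overlapped in brain, where Pdgfrb decreased. Vtn was the largest part of this sum, with means of 194 CPM in E13.5 brain and 230 CPM in P7 brain. Higd1b, the untested marker of that list, was at 0 in 4 libraries. The library with the highest Pdgfrb in each P7 group also had the highest fibroblast sum of its group, 1541 CPM for P7 brain replicate 3 and 2680 CPM for P7 spinal cord replicate 3. The part of these cell types in the Pdgfrb values was not tested.

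**Figure D2:**
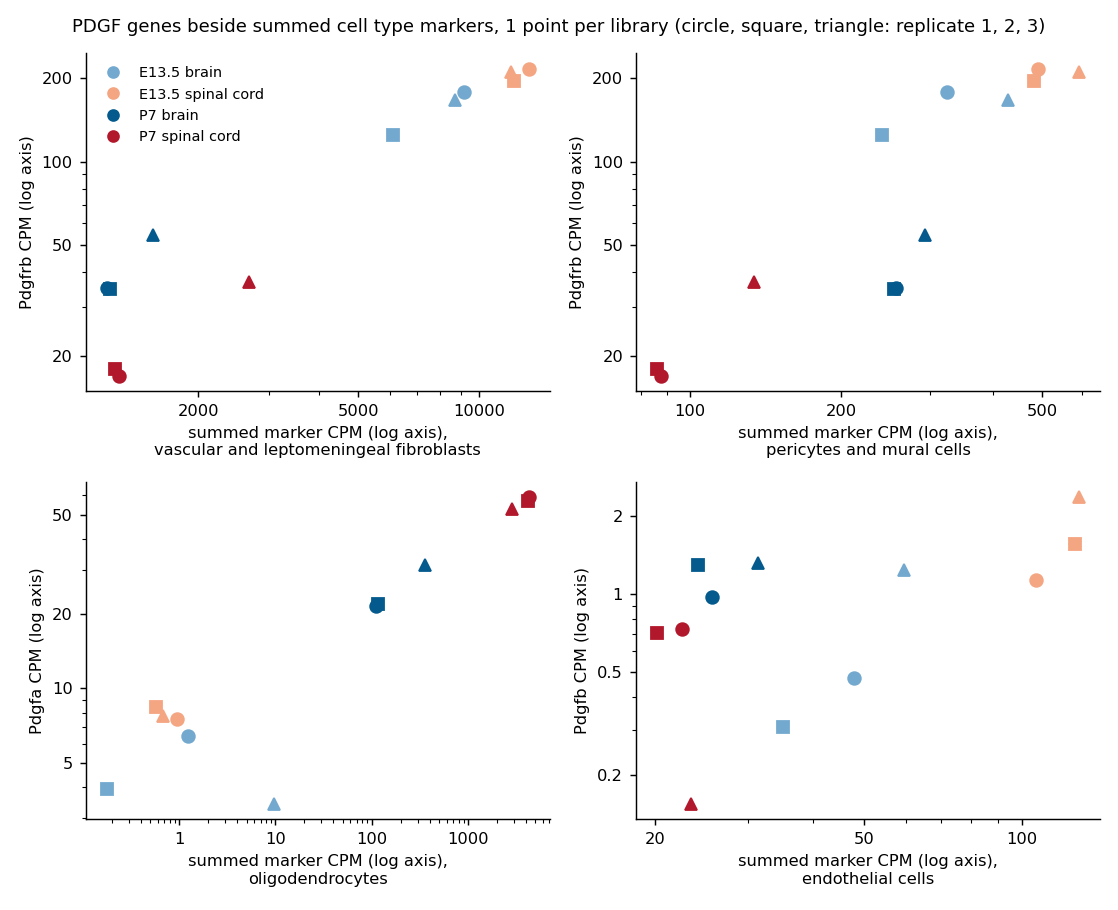
Pdgfrb, Pdgfa and Pdgfb in CPM (vertical, log axis) against the summed CPM of listed markers of another cell type (horizontal, log axis), with 1 point per library. The E13.5 libraries lie at 125 to 217 CPM of Pdgfrb and at fibroblast sums of 6102 CPM and more, the P7 libraries at 16.9 to 54.3 CPM and at 2680 CPM or less.

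Pdgfa, the ligand of PDGFRA that drives OPC proliferation, increased with age in the sorted populations as a whole. The gene (ENSMUSG00000025856) lies on chromosome 5 from 138976014 to 138997370, minus strand. E13.5 brain libraries had 6.46, 3.95 and 3.43 CPM and E13.5 spinal cord libraries 7.56, 8.45 and 7.76 CPM. P7 brain libraries had 21.4, 21.9 and 31.5 CPM and P7 spinal cord libraries 58.8, 56.8 and 52.6 CPM. The 4 groups did not overlap, in the order E13.5 brain, E13.5 spinal cord, P7 brain, P7 spinal cord. The log2 increase with age was 2.34 ± 0.20 (SE) in brain and 2.75 ± 0.20 in spinal cord (limma adjusted p = 5.98e-07 and 8.42e-08). The difference between these, -0.41 with an interval of -1.02 to 0.20, was not called.

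Between regions at P7, Pdgfa was 2.26-fold lower in brain than in spinal cord, a log2 difference of -1.17 ± 0.20 (limma adjusted p = 0.000893). With the deposited scaling it was the single member called between the regions at that age. With TMM rescaling Pdgfrb was called instead and Pdgfa was not. The deposited library sizes of the 3 P7 brain libraries were 13.1 to 16.3% above those with TMM factors, so all their CPM values were lower. The median difference of all tested genes between the regions at P7 was -0.19 on the log2 scale as deposited and -0.02 with TMM factors. Relative to that median the Pdgfa difference was -0.99, and with TMM rescaling it was -0.99 as well, just under 2-fold. At E13.5 the difference was -0.76 (limma adjusted p = 0.0104), under 2-fold. It became -1.01 and was called without E13.5 brain replicate 1, whose Pdgfa was the highest of its group.

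Oligodendrocyte markers moved with Pdgfa. The 4 reported here (Mag, Mog, Mobp and Opalin) were all called higher at P7 over both regions and lower in brain than in spinal cord at P7. Their summed level was 0.176 to 9.71 CPM in E13.5 brain and 0.578 to 0.953 CPM in E13.5 spinal cord, where between 1 and 3 of them were at 0 in each E13.5 library. It was 110 to 361 CPM in P7 brain and 2864 to 4319 CPM in P7 spinal cord. P7 brain replicate 3 had both the highest Pdgfa and the highest oligodendrocyte sum of its group, and P7 spinal cord replicate 3 the lowest of both. At E13.5 the order was not shared, since E13.5 brain replicate 3 had the highest marker sum and the lowest Pdgfa. Astrocyte markers changed in both directions with age. Of 8 listed, 4 were called higher over both regions (Slc1a2, Fabp7, Gfap and Aqp4) and Gja1 was called lower. Aldh1l1 was also called higher in brain, and Slc1a3 was also called lower in spinal cord. Aqp4, the astrocyte water channel, stood at 0.281 and 0.139 CPM in E13.5 brain and spinal cord and at 31.6 and 34.2 CPM at P7. Their sum was 1353 to 1737 CPM in E13.5 brain, 1256 to 1327 CPM in E13.5 spinal cord, 1560 to 1858 CPM in P7 brain and 1057 to 1205 CPM in P7 spinal cord. The summed level of 7 neuronal markers was 723 to 899 CPM in the E13.5 libraries and 394 to 464 CPM in the P7 libraries. The part of these cells in the Pdgfa values was not tested.

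Pdgfa shares 813 exon bases with the antisense gene 6330403L08Rik, which is described here because of that overlap. Whether the counting used the strand of the reads is not stated, so reads of the 2 genes may not be fully separated. The antisense gene was at 1.33 to 6.07 CPM at E13.5, at 6.79 to 9.93 CPM in P7 brain and at 10.9 CPM or more in P7 spinal cord. At P7 it was therefore below Pdgfa in each of the 6 libraries. No overlapping gene of the other members exceeded a mean of 0.281 CPM.

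Pdgfb (ENSMUSG00000000489), the ligand by which endothelial cells recruit pericytes, was near the lower limit of these libraries. It lies on chromosome 15 from 79995874 to 80014977, minus strand. The E13.5 brain libraries held 10, 7 and 23 reads of it and the E13.5 spinal cord libraries 19, 35 and 14. The P7 brain libraries held 32, 39 and 50 reads and the P7 spinal cord libraries 27, 23 and 5. These correspond to 0.475, 0.307 and 1.23 CPM in E13.5 brain, 1.13, 1.56 and 2.36 CPM in E13.5 spinal cord, 0.969, 1.29 and 1.32 CPM in P7 brain and 0.729, 0.710 and 0.155 CPM in P7 spinal cord. The 2 ages overlapped in brain, while in spinal cord the P7 libraries were all below the E13.5 libraries. The exact 95% Poisson intervals, which cover counting error only, were 0.124 to 0.633 CPM for the lowest brain library, E13.5 brain replicate 2, and 0.0504 to 0.362 CPM for P7 spinal cord replicate 3.

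Pdgfb decreased in spinal cord by 1.10 ± 0.32 (SE) on the log2 scale (limma adjusted p = 0.00834), and its difference in brain was 0.60 with an interval of -0.09 to 1.30. The age effects in brain and spinal cord differed by 1.70 ± 0.45 (limma adjusted p = 0.0104). The decrease in spinal cord rested on single libraries. It was -0.89 without E13.5 spinal cord replicate 3 and -0.80 without P7 spinal cord replicate 3, under 2-fold both times. With quantile normalization it was -0.69 and not called, while the brain difference was 1.01 and called. A pseudocount of 2 reduced the difference between the age effects to 0.81, also not called. At E13.5 the regional difference of -0.94 was not called, but it was -1.26 and called without E13.5 brain replicate 3 and -1.13 and called without E13.5 spinal cord replicate 1. Endothelial markers stood highest in the same group. Their sum over 8 genes was 35.0 to 59.5 CPM in E13.5 brain, 106 to 129 CPM in E13.5 spinal cord, 24.1 to 31.3 CPM in P7 brain and 20.1 to 23.4 CPM in P7 spinal cord. Cdh5 was the largest part of this sum, with a mean of 77.7 CPM in E13.5 spinal cord. Of 7 tested, 5 were called lower at P7 in spinal cord, and Ly6c1 was at 0 in all 6 E13.5 libraries. In brain Emcn was called lower and Cldn5 higher. The endothelial sum was lower in every P7 brain library than in any E13.5 brain library, whereas Pdgfb overlapped between the ages there. The part of endothelial cells in the Pdgfb values was not tested.

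Pdgfc (ENSMUSG00000028019) encodes a ligand of PDGFRA that needs proteolytic activation. The gene lies on chromosome 3 from 81036416 to 81214040, plus strand. E13.5 brain libraries had 8.84, 8.08 and 9.28 CPM and E13.5 spinal cord libraries 15.2, 11.4 and 12.2 CPM. P7 brain libraries had 4.88, 6.28 and 5.78 CPM and P7 spinal cord libraries 11.8, 12.3 and 7.66 CPM. At each age every brain library was below every spinal cord library, but E13.5 and P7 overlapped in spinal cord. None of its 7 contrasts was called. The log2 difference between P7 and E13.5 was -0.59 for brain and -0.30 for spinal cord. The brain value less the spinal cord value was -0.53 at E13.5 and -0.83 at P7, with limma adjusted p of 0.0385 and 0.00452 and changes under 2-fold. Without P7 spinal cord replicate 3, the lowest of its group, the P7 difference was -1.03 and was called.

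Pdgfd (ENSMUSG00000032006) encodes the ligand of PDGFRB that also needs proteolytic activation, and lies on chromosome 9 from 6168584 to 6378850, plus strand. E13.5 brain libraries had 5.89, 5.93 and 6.49 CPM, and E13.5 spinal cord libraries 5.90, 5.16 and 7.93 CPM. The P7 values were 2.85, 1.95 and 3.17 CPM for brain and 2.57, 2.59 and 3.85 CPM for spinal cord. Every P7 library was below every E13.5 library, and the regions overlapped at both ages. Over both regions it decreased by 1.02 ± 0.15 (SE) on the log2 scale, 2.03-fold (limma adjusted p = 3.58e-05). The change was close to the 2-fold limit and fell below it without any of 4 libraries, at -0.94 without E13.5 spinal cord replicate 3, -0.94 without P7 brain replicate 2 and -0.98 without P7 spinal cord replicate 1 or 2. With TMM rescaling it was -0.94. In brain it was -1.08 and called, or -0.92 and not called with TMM rescaling. In spinal cord it was -0.96 and not called, or -1.09 and called in edgeR, with no detectable difference between the regions (interval of the difference -0.76 to 0.51).

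**Figure D3:**
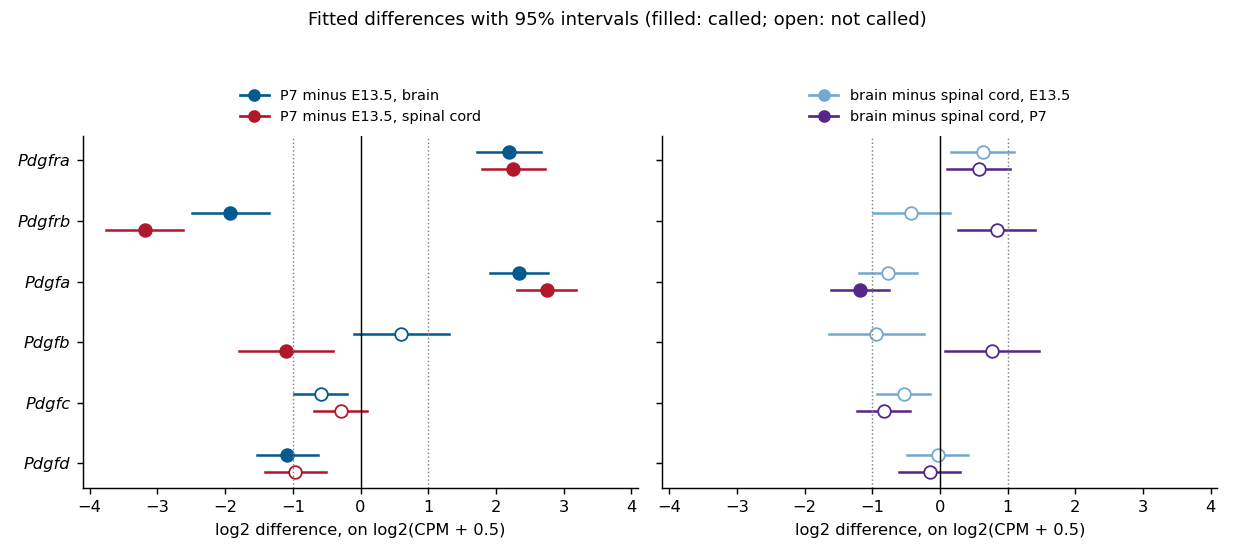
Fitted log2 differences of the 6 genes with 95% intervals, P7 minus E13.5 in each region (left) and brain minus spinal cord at each age (right), on log2(CPM + 0.5). Dotted lines mark a 2-fold difference and filled points were called. Pdgfra and Pdgfa lie to the right and Pdgfrb to the left in both regions, while the points of the right panel lie between -1.17 and 0.84.

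Levels of different genes were set side by side per kilobase of annotated exon. On this scale the E13.5 brain level of Pdgfra was 68.7 ± 13.9 CPM per kb (SD, n = 3), and that of E13.5 spinal cord was 44.3 ± 9.77. The P7 brain level was 312 ± 42.2 CPM per kb, and that of P7 spinal cord was 208 ± 6.62. For Pdgfrb the levels were 28.6 ± 5.19, 38.0 ± 1.92, 7.55 ± 2.04 and 4.37 ± 2.07 CPM per kb (SD, n = 3) in the same order. The level of Pdgfra was therefore 1.62 to 3.28 times that of Pdgfrb in E13.5 brain and 0.883 to 1.49 times in E13.5 spinal cord. At P7 the ratio was 26.6 to 53.1 in brain and 29.8 to 69.1 in spinal cord. In E13.5 spinal cord replicate 3, the library that stood apart, Pdgfrb exceeded Pdgfra per kb. In CPM, Pdgfra was the higher there, at 341 against 211. The exon lengths join all annotated transcripts of a gene, 10.02 kb for Pdgfra and 5.48 kb for Pdgfrb. The ratios depend on these lengths, which may differ from those of the transcripts present. In each P7 group replicate 3 had the lowest ratio. These ratios are descriptions over the same libraries as the fits.

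The ligands were far below the receptors on the same scale. Their sum was 4.81 to 5.79 CPM per kb in E13.5 brain, 6.96 to 7.96 in E13.5 spinal cord, 8.96 to 12.5 in P7 brain and 19.6 to 22.2 in P7 spinal cord. At E13.5 no ligand dominated. Pdgfa made up 20.9 to 35.8% of the 4 ligand transcripts in brain and 31.3 to 38.9% in spinal cord, Pdgfc 30.0 to 34.5% and 30.0 to 39.5%, and Pdgfd 32.3 to 39.1% and 23.5 to 31.6%. At P7 Pdgfa alone made up 76.4 to 80.4% in brain and 84.3 to 85.9% in spinal cord. Pdgfb was never above 7.13%, a share reached in E13.5 spinal cord replicate 3 from 14 reads. The summed receptors exceeded the summed ligands 14.8 to 20.7 times in E13.5 brain, 9.11 to 12.8 times in E13.5 spinal cord, 21.8 to 38.6 times in P7 brain and 9.77 to 10.6 times in P7 spinal cord.

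**Figure D4:**
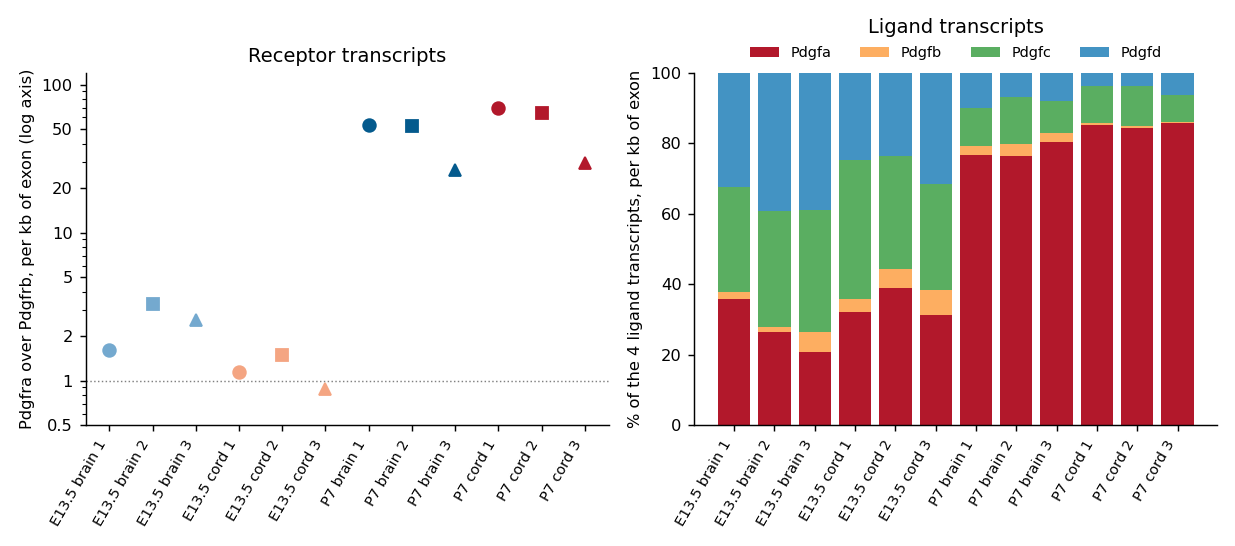
Ratio of Pdgfra to Pdgfrb per kilobase of exon in each library, on a log axis (left), and the share of each ligand gene in the 4 ligand transcripts per kilobase (right). The ratio lies at 0.883 to 3.28 in the E13.5 libraries and at 26.6 to 69.1 in the P7 libraries, and Pdgfa takes 20.9 to 38.9% of ligand transcripts at E13.5 and 76.4 to 85.9% at P7.

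The other genes of the pathway changed with age in both directions. Of 64 listed genes, all tested, 10 were called higher and 8 lower at P7 over both regions, a share of 28.1% against 29.4% of all tested genes. The median log2 difference of the list was 0.23, beside -0.04 over all tested genes. In spinal cord 20 were called higher and 8 lower (43.8%, background 35.1%), and in brain 8 higher and 10 lower (28.1%, background 27.7%). Over both ages 0 of 64 were called between brain and spinal cord in limma, although 34 had an unadjusted p under 0.05, and limma-voom, edgeR and DESeq2 called 0, 0 and 1, the last being the urokinase receptor Plaur. In brain relative to spinal cord, 3 genes of the list were called higher and 1 lower at E13.5 (6.25%, background 8.71%), against 2 and 7 at P7 (14.1%, background 6.62%). The P7 split was 2 higher and 3 lower with TMM rescaling. These lists share their libraries with the members.

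Among 8 genes of ligand processing, 2 were called higher and 1 lower at P7. Pcsk6, a proprotein convertase, increased from 8.06 CPM in E13.5 brain and 9.79 CPM in E13.5 spinal cord to 64.9 and 95.5 CPM at P7 (log2 difference 3.12 ± 0.16 over both regions, limma adjusted p = 1.77e-09). Pcsk5, a convertase of the same family, decreased by 1.72 ± 0.12 on the log2 scale over both regions (limma adjusted p = 5.58e-08). Its group means were 26.2 CPM at E13.5 and 19.6 CPM at P7 for brain, against 48.5 and 5.68 CPM for spinal cord. Plat, the tissue plasminogen activator that cleaves PDGF-C, had means of 167 CPM at E13.5 and 73.5 CPM at P7 for brain, where it was called lower, and of 167 and 142 CPM for spinal cord. Plau, which cleaves PDGF-D, was at 1.06 to 4.69 CPM in group means.

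Of 7 co-receptors and surface partners, 2 were called higher (Cspg4 and Itgav) and 2 lower (Nrp1 and Itga6) at P7 in each region. Cspg4, the NG2 proteoglycan and itself an OPC marker, increased from 126 and 56.8 CPM at E13.5 to 781 and 756 CPM at P7 in brain and spinal cord. Nrp1, a co-receptor that PDGF-B and other ligands bind, decreased from 106 and 251 CPM to 29.0 and 31.9 CPM. Their log2 differences over both regions were 3.21 ± 0.15 and -2.42 ± 0.13 (limma adjusted p = 7.92e-10 and 4.14e-09).

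Of 17 adaptors and enzymes that bind the activated receptors, 13 were not called over both regions. Fyn, a Src family kinase active in oligodendrocyte differentiation, increased from 128 and 99.7 CPM to 764 and 1078 CPM in brain and spinal cord (log2 difference 3.00 ± 0.12, limma adjusted p = 3.07e-10). Pik3r1, the regulatory subunit of phosphoinositide 3-kinase, increased by 1.64 ± 0.14 (limma adjusted p = 2.45e-07). Shc1 and Nck2 were called lower, and Nck2 passed the 2-fold limit only narrowly and was not called in 12 of 23 alternatives. Of 17 downstream kinases and factors, Stat3 alone was called over both regions, from 41.2 and 46.8 CPM to 128 and 159 CPM (log2 difference 1.69 ± 0.07, limma adjusted p = 2.59e-10). The core RAS, RAF, MEK, ERK and AKT genes were not called over both regions, while Nras, Map2k1 and Mapk3 were called higher in spinal cord alone, where Mapk3 went from 32.6 to 86.7 CPM.

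Of 9 negative regulators, 2 were called higher and 2 lower in each region at P7. Grb10, an imprinted adaptor that restrains growth factor signalling, decreased from 783 and 774 CPM to 63.9 and 88.5 CPM (log2 difference -3.36 ± 0.07, limma adjusted p = 2.37e-12). Cblb, a ubiquitin ligase of activated receptors, was called lower as well, from 91.9 and 90.1 CPM to 20.3 and 20.8 CPM. Ptprj, a phosphatase that acts on PDGFRB, increased by 2.37 ± 0.14 on the log2 scale (limma adjusted p = 7.04e-09), and the lipid phosphatase Inppl1 was called higher. Among 6 response genes, Ccnd1 (cyclin D1) increased by 1.58 ± 0.12 over both regions (limma adjusted p = 1.21e-07), from 152 to 251 CPM in brain, where the log2 difference of 0.74 was under 2-fold and not called, and from 51.3 to 273 CPM in spinal cord, where it was 2.42 and called. Fos decreased by 1.97 ± 0.42 over both regions (limma adjusted p = 0.000943). By region it was called lower in brain but not in spinal cord. Its means in brain and spinal cord were 125 and 60.1 CPM at E13.5, with wide SDs of 72.5 and 53.1 CPM, and 9.74 and 31.0 CPM at P7. The early genes Egr1 and Ier2 were also called lower in brain. Early genes can respond to tissue handling, and age and dissociation cannot be told apart here.

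**Figure D5:**
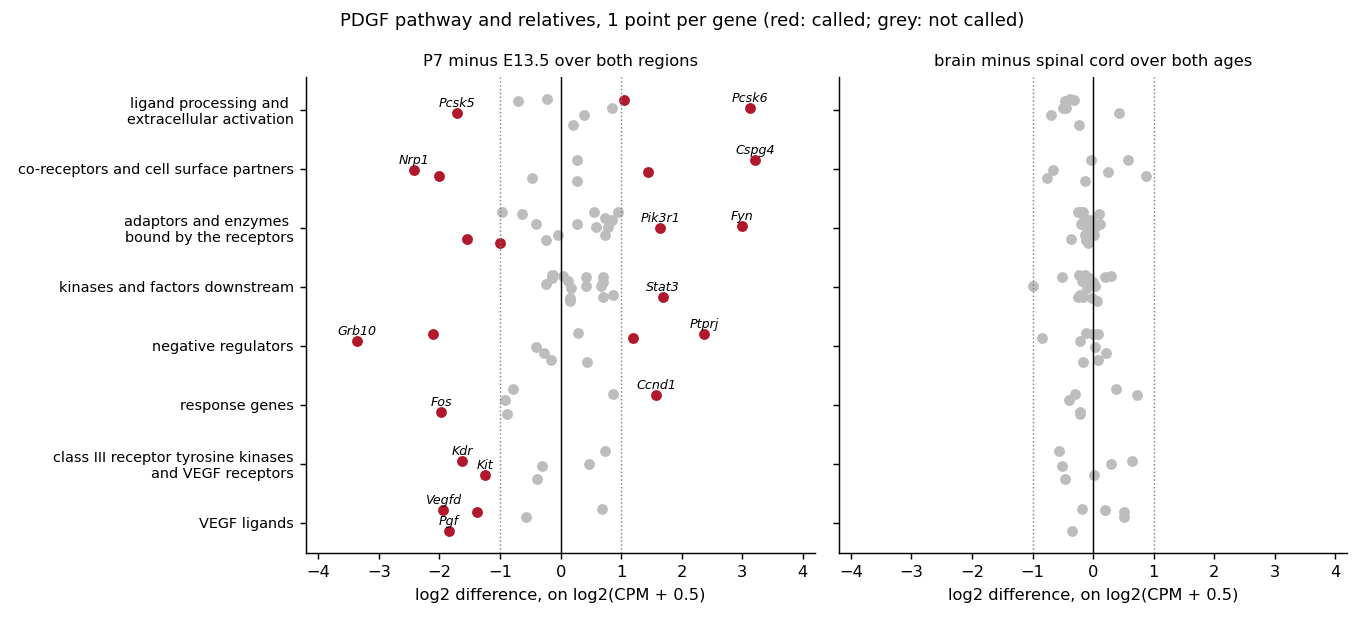
Log2 differences of the listed pathway genes and relatives, with 1 point per gene, for P7 minus E13.5 over both regions (left) and brain minus spinal cord over both ages (right), on log2(CPM + 0.5). Red points were called. The left panel holds 10 pathway genes called higher and 8 called lower, the right panel 0 of 64.

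Some of the nearest relatives of the PDGF genes were lower at P7. Of 11 listed genes, the class III receptor kinases and VEGF receptors and the VEGF ligands, 5 were called lower (background 16.7%) and 0 higher (background 12.7%) at P7 over both regions. Kit, the stem cell factor receptor, decreased from 109 and 113 CPM to 46.5 and 44.9 CPM (log2 difference -1.25 ± 0.10, limma adjusted p = 1.12e-07). Kdr, the main VEGF receptor, decreased by 1.62 ± 0.20 (limma adjusted p = 9.33e-06). Among the ligands Vegfd, Pgf and Vegfc were called lower, with group means of 8.10 CPM or less at E13.5 for Pgf and 2.79 CPM or less for Vegfd. The Vegfd difference of -1.95 was -0.94 and not called with a pseudocount of 2. Vegfa and Vegfb were not called. In brain alone Csf1r, the receptor that marks microglia, was called higher at P7, at 10.6 CPM against 2.33 CPM. Of 4 microglial markers tested, 3 were called higher in P7 brain as well, with Cx3cr1 at 1.57 and 9.0 CPM, C1qa at 0.551 and 3.58 CPM and P2ry12 at 1.58 and 6.47 CPM in E13.5 and P7 brain. Tmem119 was called lower, from 17.4 to 6.63 CPM, and the sum over all 6 markers was 17.0 to 27.7 CPM at E13.5 and 20.1 to 41.9 CPM at P7. The part of microglia in the Csf1r values was not tested. In spinal cord alone Flt3 was called higher, at 0.882 CPM or less.

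Kit and Kdr lie beyond Pdgfra on chromosome 5, and Lnx1 lies before it, so neighbours along the chromosome could be compared. Lnx1, from 74592447 to 74702912 on the minus strand, was at 4.996 and 1.36 CPM at E13.5 and 92.3 and 52.7 CPM at P7 in brain and spinal cord. Between it and Pdgfra lie Chic2, at 41.0, 39.9, 46.3 and 41.5 CPM in the 4 groups, and Gsx2, at most 6.35 CPM. Kit begins at 75574916 and Kdr at 75932827. The direction of Pdgfra was therefore shared by Lnx1 but not by Kit and Kdr. Of the genes before Lnx1, Scfd2 had higher means at P7, from 23.9 and 22.8 CPM to 53.5 and 45.2 CPM in brain and spinal cord. Rasl11b had lower ones, from 8.78 and 15.7 CPM to 4.11 and 5.02 CPM.

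Lnx1 was also the gene whose pattern over the 12 libraries was most like that of Pdgfra among 13020 protein-coding candidates, with a Pearson r of 0.996 on log2(CPM + 0.5). Plppr5, Nim1k, Epn2 and Kcnd2 followed at 0.991 to 0.992. For Pdgfrb the 5 most like genes were Col4a2, Acsf2, Tgfbr2, Mrc2 and Loxl2, at 0.993 to 0.995. Col4a2, a basement membrane collagen, was at 722 and 847 CPM at E13.5 and 213 and 122 CPM at P7. For Pdgfa they were Iffo1, Col11a2, Dcaf11, Vsir and Tcf25, at 0.991 to 0.997, and Col11a2 went from 14.1 and 35.9 CPM to 156 and 430 CPM. For Pdgfd they were Kdelr3, Prkd2, Cavin1, Ptgis and C1qtnf12, at 0.965 to 0.970.

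Likeness was weaker for the other 2 ligands. The closest gene to Pdgfb was Flt1, a VEGF receptor, at 0.910, followed by Aplnr, Cd93 and Fgfbp3 down to 0.893. Flt1 was at 2.48, 6.27, 3.37 and 2.70 CPM in E13.5 brain, E13.5 spinal cord, P7 brain and P7 spinal cord. For Pdgfc the genes were Sorl1, Tpst1, Gdpd5, Tenm3 and Pgd, at 0.917 to 0.932. Sorl1 had the same order of groups as Pdgfc, at 55.5, 96.7, 33.5 and 86.5 CPM. All of these values are over the same 12 libraries, which the 4 groups divide, and they are descriptions.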

How the data were processed

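The authors aligned stranded total RNA libraries to mm10 with STAR 2.5.0a and counted GENCODE M8 genes with featureCounts 1.5.0-p1, sharing multiply mapped reads fractionally and rounding. Whether counting used the strand is not given in the sources used here. The authors deposited CPM values, without a log, computed on library sizes rescaled by normalization factors. In 3 columns the deposited CPM exceed in sum what plain CPM allows, so these were handled as signal. Every value was a whole multiple of 1 read per column (100.0% of values within 0.01), so reads could be recovered. No sample column was left out (0 columns not used). The authors' notes also name HISAT2 2.0.5 and StringTie 1.3.1c, in a role not given in the sources used here.

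Symbols, positions and exon lengths came from GENCODE M21 on the same build, with 46488 of 47069 identifiers matched and all 6 PDGF genes among them. Promoter windows came from RefSeq. Testing was limited to the 18319 genes, the 6 included, that reached 0.7 CPM in 3 or more libraries. limma 3.58.1 in R 4.3.3 was fitted with an intensity trend to log2(CPM + 0.5), over all 12 libraries with 1 mean per group. The pseudocount understates the change of low genes. A call needed a Benjamini-Hochberg adjusted p under 0.05 over all tested genes and more than 2-fold. limma-voom, edgeR 4.0.16 and DESeq2 1.42.0 were run on the recovered reads as alternatives, with other pseudocounts, filters and scalings, the replicate number as a block, each library left out and P7 replicates 1 and 2 averaged. The script was tested on simulated counts. Per-length levels, ratios and likeness were described without a test. Floors of 3 reads and exact Poisson intervals cover counting error only, since copied reads are not independent molecules.

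Groups and replicate numbers came from the sample titles. Genes named besides the 6 were, for each pathway role and group of relatives, the 2 called genes with the largest change over both regions or both ages, the 5 genes most like each member with a mean of at least 1 CPM, listed cell type markers, and neighbouring or overlapping genes. A few further list members (Plat, Plau, Plaur, Itgav, Itga6, Shc1, Nck2, Cblb, Inppl1, Egr1, Ier2, Nras, Map2k1, Mapk3, Csf1r, Flt3, Vegfa, Vegfb and Vegfc) were named after their values were seen. Some genes that these lists or rules cover are not reported here. The members and the lists were chosen with earlier results of these data known.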

Additional observations from a re-analysis of the deposited data

Results flagged for a closer look

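The age effect differed between brain and spinal cord, by the limma contrast between the P7 and E13.5 regional differences, for 2 PDGF genes. Pdgfb differed by 1.70 and Pdgfrb by 1.26 on the log2 scale, both in the direction of a relatively higher level in P7 brain. For Pdgfb the call rested on 5 to 50 reads per library. Of the 64 listed pathway genes, the same contrast was called higher for 3 and lower for 13, or 25%, against 16.3% of all tested genes. Those named in the report were Pcsk5 at 2.61, Nrp1 at 1.14, Itga6 at -1.04, Cspg4 at -1.04, Pik3r1 at -1.14, Ier2 at -1.36, Nras at -1.45, Mapk3 at -1.50, Ccnd1 at -1.68, Plau at -1.79, Egr1 at -2.07 and Fos at -2.78. Of the 11 relatives it was called for Csf1r at 2.83, Flt1 at 1.70 and Kdr at -1.18. Among the 23 alternatives run, Pcsk5, Nrp1, Nras, Mapk3, Ccnd1, Plau and Csf1r were called in every one. Fos was not called in 2, Egr1 in 3, Pik3r1 in 7, Cspg4 in 9, Itga6 in 10, Flt1 in 11, Kdr in 14 and Ier2 in 16.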

How the results depend on the processing

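No result changed direction among those called. Of 990 alternative values for the log2 differences of the 6 genes, 939 kept their side of the threshold, 26 lost the call and 25 gained it. The age calls of Pdgfra, Pdgfa and Pdgfrb held under every alternative run. Pdgfd, close to 2-fold, was -0.77 over both regions with a pseudocount of 2, -0.76 with quantile normalization and -0.95 with P7 replicates 1 and 2 averaged, and not called in these. Pdgfa at P7 between regions was -0.99 to -0.89 and not called under TMM, median-ratio and quantile scaling and in edgeR and DESeq2. Pdgfrb at P7 between regions was 1.01 to 1.06 and called in these same settings, against 0.84 and not called in the main fit. The spinal cord change of Pdgfb, from 5 to 35 reads per library, was -0.54 with a pseudocount of 2. The cause of these shifts was not tested.

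The number of members called over both ages between regions became 1 with a pseudocount of 0.1 or limma-voom and 0 to 1 with single libraries left out. At E13.5 between regions it became 1 in DESeq2, with 0 to 1 when single libraries were left out. At P7 between regions it became 2 with quantile normalization, limma-voom or DESeq2, with 1 to 3 over libraries left out. For the change of the regional difference it became 1 with a pseudocount of 2 or with P7 replicates 1 and 2 averaged. Without the fold threshold, the members called between regions were 3 for the averaged ages, 4 for E13.5 and 3 for P7.

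The pathway genes called became 1 over both ages in DESeq2, with 0 to 1 over libraries left out. At P7 between regions they became 3 with a pseudocount of 2, 5 with TMM or median-ratio scaling or averaged replicates, and 5 to 10 over libraries left out. For the change of the regional difference they became 10 with TMM, 9 with median-ratio or quantile scaling and 8 in edgeR and in DESeq2. Without the fold threshold the age comparison had 53 for the averaged regions, 39 for brain and 49 for spinal cord, the regional comparison had 23 for the averaged ages, 17 for E13.5 and 31 for P7, and the change of the regional difference had 35. All tested genes called without it were 13359, 11227, 12822, 4664, 5979, 5491 and 7290 in the same order, and with a pseudocount of 2 the 3 regional comparisons had 450, 985 and 795.

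The share of higher among all calls was 34.3% at P7 between regions, and 46.6% with TMM. For the change of the regional difference it was 40.8%, and 54.9% with TMM and 63.7% with median-ratio scaling, and for age in brain it was 39.7%, and 50.1% with median-ratio scaling. The median of all tested genes for age in brain and for the change of the regional difference was -0.19 and -0.24, and -0.02 and -0.07 with TMM. Deviations of same-numbered samples correlated between regions at 0.082 to 0.412 at E13.5 and at 0.013 to 0.044 at P7. For samples with different numbers the range was -0.436 to 0.203 at E13.5 and -0.057 to 0.063 at P7. The sample titles name no pairs, and the numbers were not taken as pairs. A pairing of the regions at E13.5 was not tested. In a fit with a replicate block, the age comparison averaged over regions had 5380 calls, with 4 members and 18 pathway genes. The block changed no call of a member. It joined the same number across both ages, so it is no check of a pairing of regions within an age.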
